A study of Mus musculus with 576 samples.

Results

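The 34 genes described here encode the glucose transporters Slc2a1 and Slc2a3, the enzymes of glycolysis from hexokinase to lactate dehydrogenase, and the lactate carriers Slc16a1 and Slc16a3. The others encode pyruvate dehydrogenase complex subunits and the kinases that set how much pyruvate this complex oxidises to acetyl-CoA. They were listed by gene symbol for their place in the pathway, with earlier results of these data known but with no threshold on a measured value, and all 34 of them were among the 46078 genes counted. Their reads were taken from single hematopoietic stem cells of mouse bone marrow from femurs and tibias, sorted as CD150+ CD48- cKit+ Sca1+ cells into wells of a 96-well plate and sequenced by full-length single-cell RNA-seq without molecular identifiers. The cells fell into 6 groups of 96: p27 high, p27 low and p27 negative cells from control marrow, and the same 3 classes from LPS-treated marrow (LPS, lipopolysaccharide, is a bacterial cell wall component). Strain, age and number of the mice, the construct behind the p27 marker, and the dose and time of LPS were not found in the labels. No label ties a cell to an animal, so each group counts as 1 sample, no difference between groups was tested, and an animal, plate or library batch cannot be told apart from a group.

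Glycolysis splits glucose to pyruvate in the cytosol. Pyruvate is then either reduced to lactate by lactate dehydrogenase, which is exported, or oxidised to acetyl-CoA by the mitochondrial pyruvate dehydrogenase complex, which the PDK kinases switch off by phosphorylation. Several steps have isozymes with different properties, and quiescent hematopoietic stem cells are known for relying on glycolysis more than cycling progenitors do, with PDK kinases and the hypoxia-inducible factor HIF-1 among the factors linked to that state.

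Cells with at least 50000 gene reads were kept, which left 547 of 576 cells (84, 93 and 95 control and 93, 90 and 92 LPS cells in the order p27 high, low, negative). A kept cell had 52163 to 1942773 gene reads. The 20 genes of a G2/M list summed to 5724 and 5043 CPM (read counts scaled to 1000000 gene reads) in the p27 negative groups of control and LPS marrow and to between 194 and 384 CPM in the other 4 groups, so cell division genes moved with the p27 class and their part in the differences below was not tested. All 10 stem cell markers examined had reads in every group. They summed to 3288, 2474 and 1726 CPM in the control p27 high, low and negative groups and to 3234, 2558 and 1693 CPM under LPS. These sums do not stand for each marker. In CPM, the median marker's log2 fold of LPS over control was -0.52, -0.66 and -0.11 in p27 high, low and negative cells. Over all genes it was -0.08, -0.15 and -0.11. Ly6a (mean of 545 CPM over the groups) was the only marker higher past 2-fold under LPS, and it was so in each class. Of 6 megakaryocyte and platelet markers, all had reads in every group, with sums of 331, 1282 and 1395 CPM in control marrow and 253, 857 and 945 CPM in LPS cells. Erythroid markers summed to between 28.1 and 283 CPM, neutrophil markers to between 4.04 and 27, monocyte and macrophage markers to between 355 and 854, B cell markers to at most 3.13 and T and NK cell markers to between 56.7 and 174 CPM. The monocyte and macrophage sum was mostly Lyz2 (mean of 592 CPM over the groups), with Cd68 next at 16.3 CPM. The T and NK cell sum was mostly Nkg7 (121 CPM), with Cd4 next at 1.13 CPM. Gene reads per spike-in read were 9.37, 9.84 and 12.7 in control and 25.6, 23.9 and 44.8 in LPS cells, so a level per spike-in read gives another picture than CPM between treatments and between p27 classes. Levels and folds below are in CPM unless that scale is named. Per spike-in read, the median log2 fold of all genes moved by -0.36 in control and -0.76 under LPS for p27 high over negative cells, and by -0.30 and -0.86 for low over negative cells.

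Promoter sequences are shown for 4 genes whose levels carry the results below: Aldoa and Pdk2, which had higher summed CPM in p27 high and low than in p27 negative cells, Hk2, which had a higher level after LPS, and Ldha, the member with the most reads. Each is the stretch of 250 bases before an annotated start in the RefSeq promoter table (build GRCm38.p6), read 5′ to 3′ on the gene's strand, and none of the 4 stretches overlapped an annotated exon. Capitals mark ACGTG on either strand (CACGT on the strand printed), the core of the hypoxia response element, which is also part of the E-box CACGTG bound by MYC and other factors. The Aldoa stretch is chr7:126799255-126799504 on the minus strand, 1 of 3 listed for the gene. The Pdk2 stretch is chr11:95041372-95041621 on the minus strand, 1 of 2 listed. The Hk2 stretch is chr6:82774455-82774704 on the minus strand. The Ldha stretch is chr7:46845554-46845803 on the plus strand, 1 of 2 listed. For Aldoa, Pdk2 and Ldha a stretch with a match was chosen for printing, and 1 other stretch of each gene held no match.
Aldoa: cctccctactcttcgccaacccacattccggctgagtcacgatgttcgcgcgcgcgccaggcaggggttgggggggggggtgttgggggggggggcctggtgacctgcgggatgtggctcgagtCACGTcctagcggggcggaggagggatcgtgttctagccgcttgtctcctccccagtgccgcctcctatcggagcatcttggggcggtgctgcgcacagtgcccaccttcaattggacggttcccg
Pdk2: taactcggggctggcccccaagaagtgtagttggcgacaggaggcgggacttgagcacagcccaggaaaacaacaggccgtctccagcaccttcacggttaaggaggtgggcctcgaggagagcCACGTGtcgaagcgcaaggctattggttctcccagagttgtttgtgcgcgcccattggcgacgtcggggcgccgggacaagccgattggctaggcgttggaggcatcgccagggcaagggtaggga
Hk2: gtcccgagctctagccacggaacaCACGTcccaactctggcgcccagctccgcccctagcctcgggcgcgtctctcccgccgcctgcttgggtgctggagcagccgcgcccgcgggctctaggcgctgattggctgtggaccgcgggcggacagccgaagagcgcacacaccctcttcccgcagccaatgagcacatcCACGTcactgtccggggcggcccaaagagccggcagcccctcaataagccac
Ldha: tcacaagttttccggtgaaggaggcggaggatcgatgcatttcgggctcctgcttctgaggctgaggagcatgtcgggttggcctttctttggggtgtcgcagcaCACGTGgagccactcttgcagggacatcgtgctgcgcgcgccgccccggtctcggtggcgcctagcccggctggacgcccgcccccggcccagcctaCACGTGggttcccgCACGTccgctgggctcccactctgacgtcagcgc

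The core was present in 40.4% of the 52 listed stretches of the members, which belong to 33 genes (17 of them with a match in at least 1 stretch), and in 16.6% of all 32851 stretches of that length in the table. Stretches of 1 gene can overlap, so these are not independent. The members with a match were Aldoa, Hk2, Hk3, Ldha, Ldhd, Pdhb, Pdk2, Pdk3, Pfkfb2, Pfkfb3, Pfkm, Pgam1, Pgk1, Pkm, Slc16a1, Slc16a3 and Slc2a1. A match is a match of letters, and no binding was measured.

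The 34 genes together took 5984, 5775 and 4508 CPM in the control p27 high, low and negative groups, and 5688, 5288 and 4539 CPM in LPS cells. The summed level in CPM was thus lowest in the p27 negative cells of both treatments, while per spike-in read the log2 fold of the sum of p27 high over negative cells was -0.03 in control and -0.48 under LPS (0.41 and 0.33 in CPM). Cells were also divided by cell number into 3 parts (1 to 32, 33 to 64, 65 to 96), which are not replicates and only show how far a value rests on a few cells. Over these parts the sums ranged from 5850 to 6100, 5719 to 5811 and 3791 to 4894 CPM in control marrow and from 5619 to 5748, 4941 to 5583 and 4406 to 4653 CPM in LPS cells, so the parts of the p27 negative groups lay below those of the other groups of the same treatment. The 20 genes of the tricarboxylic acid cycle went the other way in control marrow, with 4490, 4815 and 5515 CPM, and had 4505, 4362 and 4691 CPM under LPS. Ldha took the most reads of the members in every group, followed by Aldoa in p27 high and low cells, and the heat map of levels shows that no other gene passed 675 CPM in any group. The sums thus weigh mostly the members with many reads, above all Ldha and Aldoa, and do not stand for each member. For p27 low over negative cells the median member's log2 fold was 0.28 in control and 0.01 under LPS. Over all genes it was 0.05 and 0.02.

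**Figure D1:**
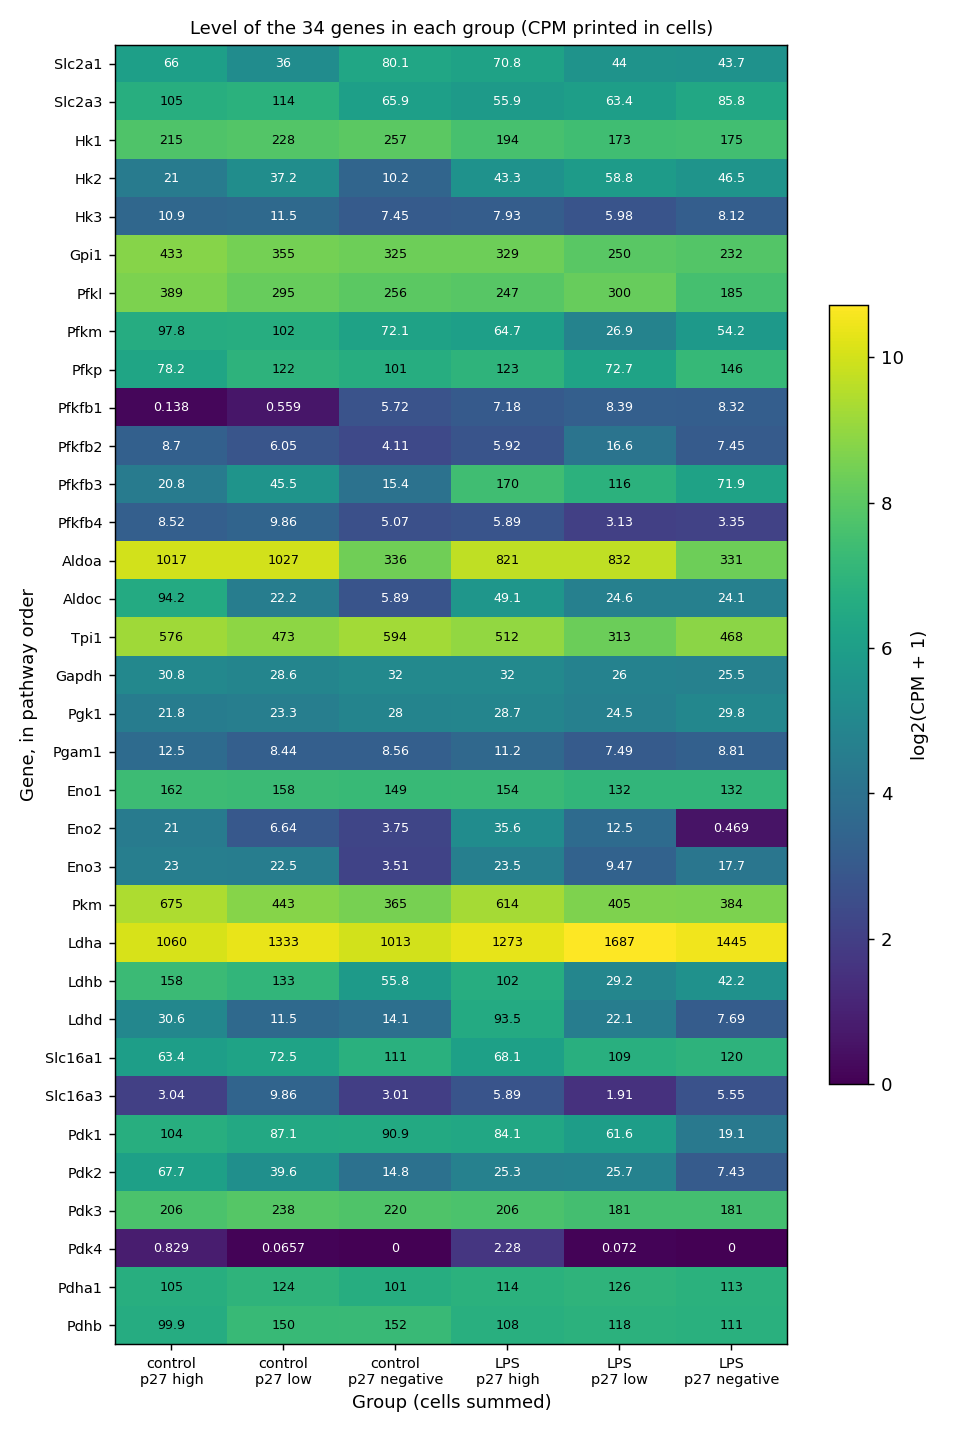
Level of each of the 34 genes (rows, in pathway order) in the 6 groups (columns), as CPM of the summed cells, printed in each field and coloured on a log2 scale after adding 1. Aldoa drops from 1017 and 1027 CPM in control p27 high and low cells to 336 CPM in p27 negative cells, and Pfkfb3 goes from 15.4 to 45.5 CPM in control groups to 71.9 to 170 CPM in LPS groups.

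Between p27 classes, the members were compared as log2 folds after adding 1 CPM, and a fold past 2 in either direction is counted. Among the 33 members with a mean of at least 1 CPM (all but Pdk4), 7 were higher and 1 lower in control p27 high than negative cells (24.2%), where 24.7% of all 13967 genes with that mean passed (14.5% higher, 10.1% lower). In LPS marrow 7 were higher and none lower in p27 high than negative cells (21.2%), against 22.2% of all genes (13.5% higher, 8.7% lower). These shares lie near the background, so the counts do not set the members apart from other genes. The median member's log2 fold was 0.41 in control and 0.25 in LPS marrow, beside 0.05 and 0.07 over all genes. For p27 low against negative cells, 8 were higher and 2 lower in control marrow (30.3% against a background of 21.9%, with 11.8% higher and 10.2% lower), and 6 higher and 1 lower under LPS (21.2% against 20.3%, with 9.09% higher and 11.2% lower). For p27 high against low cells, 3 were higher and 2 lower in control marrow (15.2% against 20.9%, with 11.6% higher and 9.34% lower), and 6 higher and 1 lower under LPS (21.2% against 21.7%, with 13.8% higher and 7.93% lower). The comparisons within a treatment share groups and are not independent of each other.

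Aldoa (ENSMUSG00000030695, chromosome 7, 126795234 to 126800751, minus strand; coordinates are those of mm10 in GENCODE M21) encodes the main aldolase, which splits fructose 1,6-bisphosphate, and its level separated the p27 negative cells from both other classes. In control p27 high cells the lowest, median and highest cell had 75.9, 1044 and 2853 CPM, in p27 low cells 13.9, 846 and 2635 CPM, and in p27 negative cells 0, 234 and 1286 CPM. Under LPS these values were 0, 836 and 2543 CPM in p27 high, 22.6, 769 and 3758 CPM in p27 low, and 0, 293 and 1205 CPM in p27 negative cells. The ranges of single cells overlapped, while the lower quartile of p27 high and low cells (717 and 514 CPM in control, 435 and 495 CPM under LPS) lay close to or above the upper quartile of p27 negative cells (509 and 467 CPM). Summed over cells, Aldoa had 1017, 1027 and 336 CPM in control marrow and 821, 832 and 331 CPM in LPS cells (exact Poisson intervals of 95%, which cover counting error only, were 1003 to 1030 CPM in control p27 high and 331 to 342 CPM in control p27 negative cells). On the log2 scale, the fold of p27 high over negative cells was 1.59 in control (1.29 to 1.84 over the 3 parts) and 1.31 under LPS (1.17 to 1.42), and that of p27 low over negative cells was 1.61 (1.4 to 1.77) and 1.33 (1.27 to 1.39). Between p27 high and low cells it was -0.01 and -0.02. Per spike-in read, the p27 high over negative fold was 1.16 in control and 0.51 under LPS, and the low over negative fold was 1.24 and 0.43, so under LPS the difference was under 2-fold on that scale. Within groups, the rank correlation over cells of Aldoa with the G2/M sum was 0.07, -0.27 and -0.19 in the control p27 high, low and negative groups (84, 93 and 95 cells) and -0.24, 0.01 and -0.46 under LPS (93, 90 and 92 cells), given as a description. Cells differed in depth, and the rank correlation of Aldoa with a cell's gene reads was between -0.11 and 0.16 in the 6 groups.

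Aldoc (ENSMUSG00000017390, chromosome 11, 78322968 to 78327781, plus strand), the paralog best known from brain, was a minor aldolase with its highest level in control p27 high cells. It had reads in 31 of 84 control p27 high cells, 19 of 93 p27 low cells and 16 of 95 p27 negative cells, with highest cells at 872, 435 and 555 CPM and a median cell at 0 in each group. Under LPS it had reads in 20, 18 and 16 cells of p27 high, low and negative groups, with highest cells at 687, 532 and 407 CPM. Most cells of every group thus had no Aldoc read. Summed over cells, the levels were 94.2, 22.2 and 5.89 CPM in control marrow and 49.1, 24.6 and 24.1 CPM in LPS cells. The log2 fold of control p27 high over negative cells was 3.79 (2.59 to 5.25 over parts) and over low cells 2.04 (0.80 to 3.63). LPS p27 negative cells stood 1.87 above control p27 negative cells, but only 0.17 when each cell's own CPM was averaged in place of the summed reads. Per kilobase of exon, Aldoc made up 7.64%, 1.89% and 1.54% of the aldolase pair in control and 5.06%, 2.57% and 6.11% in LPS cells.

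**Figure D2:**
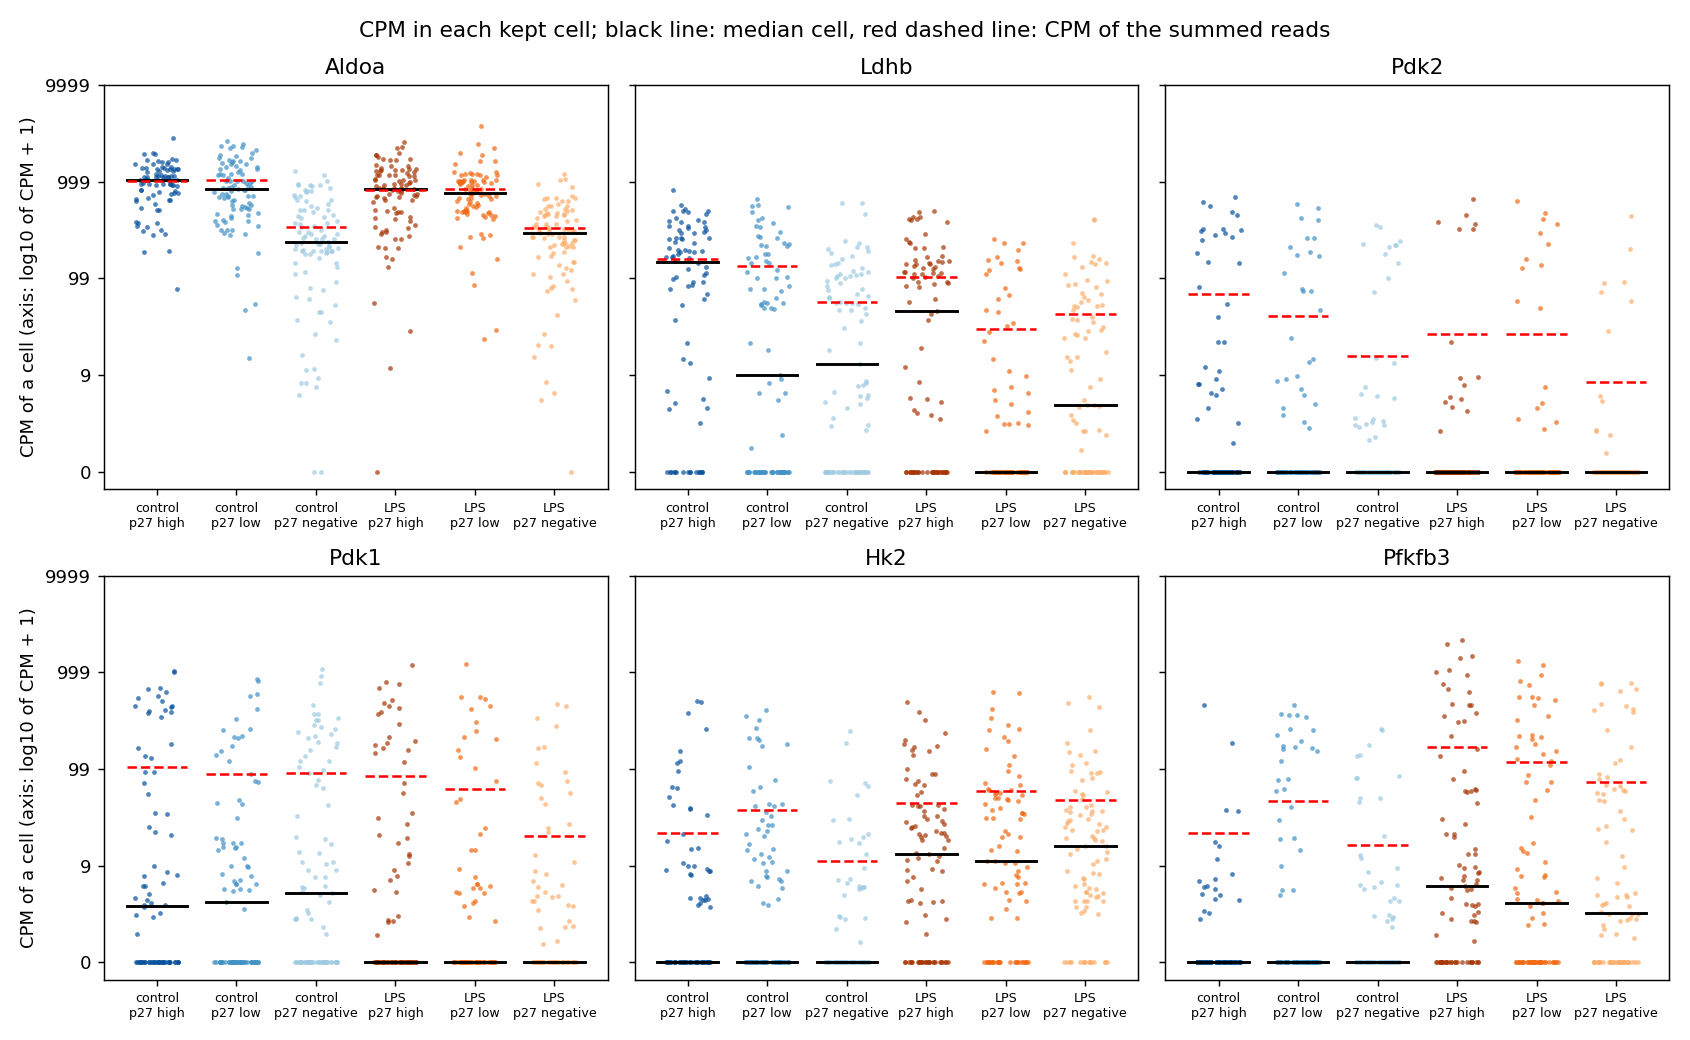
CPM of 6 genes in each of the 547 kept cells (points; vertical axis log10 of CPM + 1), by group, with the median cell as a black line and the CPM of the summed reads as a red dashed line. Aldoa is present in nearly all cells with a lower median in both p27 negative groups (234 and 293 CPM), whereas Pdk2, Pdk1, Hk2 and Pfkfb3 have many cells at 0 and differ between groups in how many cells have reads and in the height of the positive cells.

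Among the other enzymes of the trunk of glycolysis, few differences between p27 classes passed 2-fold. Pkm (chromosome 9, 59656368 to 59679375), pyruvate kinase, had 675, 443 and 365 CPM in control marrow and 614, 405 and 384 CPM in LPS cells, a log2 fold of p27 high over negative cells of 0.88 (0.50 to 1.36 over parts) and 0.68 (0.33 to 1.05). Gpi1, glucose-6-phosphate isomerase, had 433, 355 and 325 CPM in control marrow and 329, 250 and 232 CPM in LPS cells, and Pfkl, the liver-type phosphofructokinase, 389, 295 and 256 CPM in control marrow and 247, 300 and 185 CPM in LPS cells. In CPM these 3 genes were higher in p27 high than negative cells in both treatments, by less than 2-fold. Per spike-in read the log2 folds of Pkm, Gpi1 and Pfkl were 0.45, -0.02 and 0.17 in control and -0.13, -0.30 and -0.38 under LPS, so the direction turned for all 3 under LPS and for Gpi1 in control. Of them Pkm shares 25.8% of its 50-base stretches with other genes and Gpi1 15.8%. Tpi1, triose phosphate isomerase, had 576, 473 and 594 CPM in control marrow and 512, 313 and 468 CPM in LPS cells, with no such order. Hk1, the constitutive hexokinase, had 215, 228 and 257 CPM in control marrow and 194, 173 and 175 CPM in LPS cells. Pfkp, the platelet-type phosphofructokinase, ranged from 72.7 to 146 CPM without an order by class.

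Pfkm (chromosome 15, 98092589 to 98132451), the muscle-type phosphofructokinase, was lowest in LPS p27 low cells. The numbers of cells with a read were 45, 51 and 39 in the control p27 high, low and negative groups and 44, 33 and 52 under LPS, with median cells at or below 3.14 CPM and highest cells at 857, 699 and 677 CPM in control marrow and 686, 312 and 637 CPM in LPS cells. The summed levels were 97.8, 102 and 72.1 CPM in control marrow and 64.7, 26.9 and 54.2 CPM in LPS cells. On the log2 scale, the fold of LPS over control in p27 low cells was -1.88 (-2.56 to -0.81 over parts) and was -0.63 per spike-in read. Under LPS, p27 high cells stood 1.23 above low cells (1.02 to 1.37), or 0.99 without cells 33 to 64.

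The payoff-phase enzymes that mouse cells usually carry in large amounts were counted at low levels here. Gapdh, glyceraldehyde-3-phosphate dehydrogenase, had between 25.5 and 32 CPM, Pgk1, phosphoglycerate kinase, between 21.8 and 29.8 CPM, and Pgam1, phosphoglycerate mutase, between 7.49 and 12.5 CPM. Each varied by less than 2-fold between groups. Of the 50-base stretches of their transcripts, 25.1% for Gapdh, 53.9% for Pgk1 and 36.2% for Pgam1 also occur in other genes, mostly processed pseudogenes (the closest was Gm7336 for Gapdh, Pgk1-rs7 for Pgk1 and Pgam1-ps2 for Pgam1), and the tables hold 0 reads in the class of non-unique alignments. The absolute levels of these genes are therefore uncertain. Eno1, the ubiquitous enolase, had 162, 158 and 149 CPM in control marrow and 154, 132 and 132 CPM in LPS cells and shares 26% of its stretches, most of them with Eno1b, so it is uncertain too.

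The tissue-restricted enolases were carried by few cells. Eno2 (chromosome 6, 124760053 to 124769673), the neuronal enolase, had reads in 11, 5 and 3 control cells and 10, 12 and 3 LPS cells in the order p27 high, low, negative, with highest cells at 644, 446 and 455 CPM and at 1011, 471 and 40.8 CPM. Its summed level was 21, 6.64 and 3.75 CPM in control marrow and 35.6, 12.5 and 0.469 CPM in LPS cells, and a single cell held 55.2% of the reads of LPS p27 high cells. The log2 fold of p27 high over negative cells under LPS was 4.64 (2.22 to 5.62 over parts) and that of p27 low over negative cells 3.20 (1.85 to 3.89). Eno3 (chromosome 11, 70657202 to 70662513), the muscle enolase, had reads in 13, 12 and 9 control cells and 15, 9 and 20 LPS cells, with highest cells at 386, 570 and 126 CPM and at 404, 249 and 244 CPM. Its summed levels were 23, 22.5 and 3.51 CPM in control marrow and 23.5, 9.47 and 17.7 CPM in LPS cells, with 59% of the control p27 low reads in a single cell. On the log2 scale, the fold of control p27 low over negative cells was 2.38, or 1.26 without the top cell of each group, and that of LPS p27 high over low cells was 1.22.

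**Figure D3:**
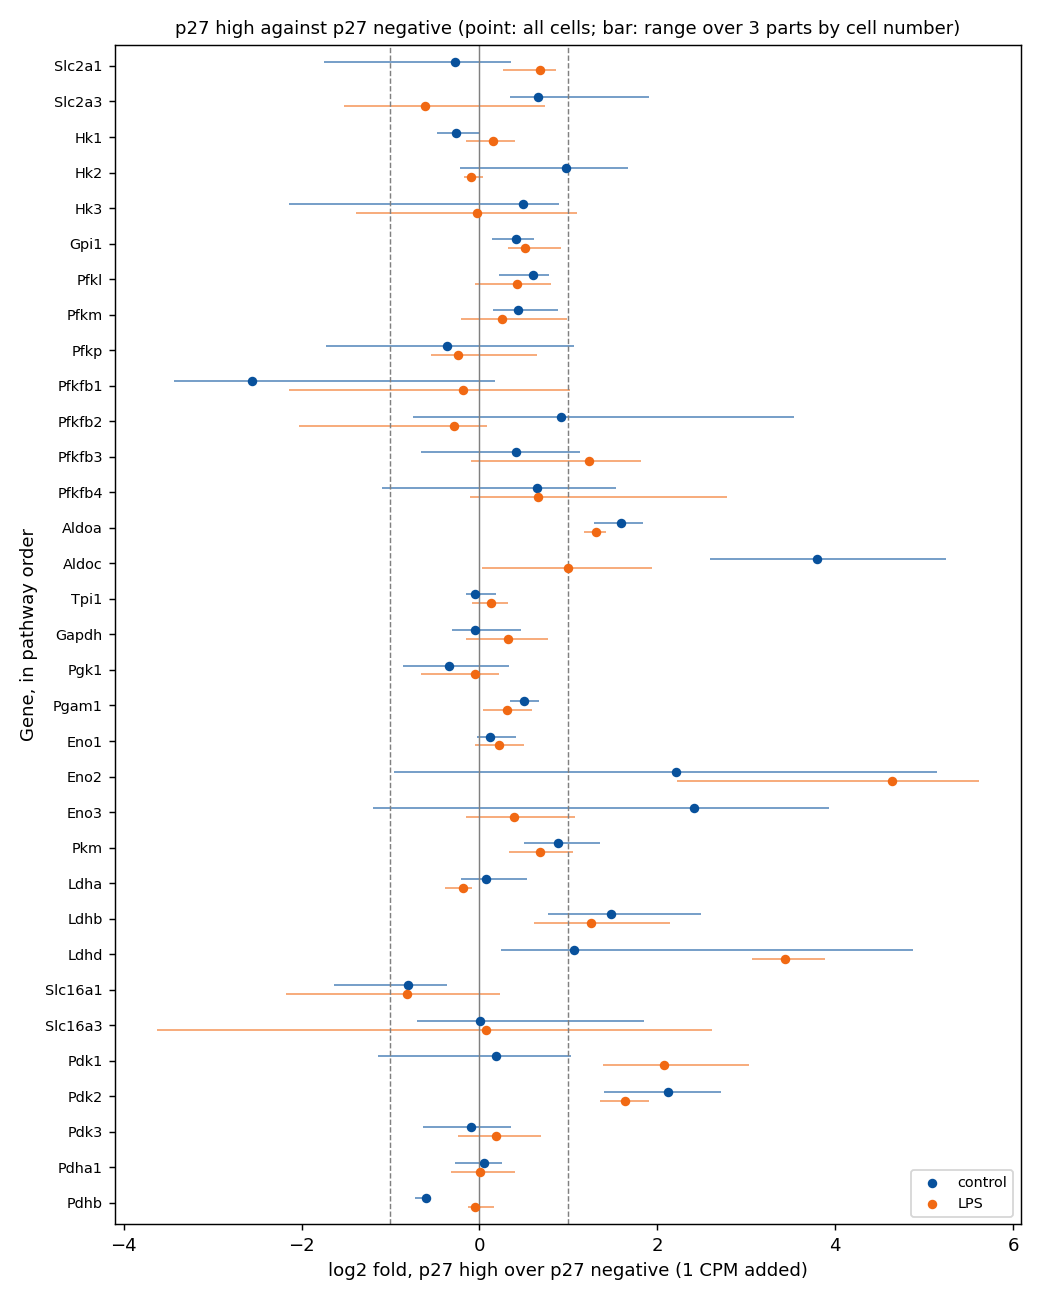
Log2 fold of p27 high over p27 negative cells (horizontal axis, 1 CPM added) for the 33 genes with a mean of at least 1 CPM, in control and LPS marrow; points are all cells, bars the range over the 3 parts by cell number, and dashed lines a 2-fold difference. Aldoa lies at 1.59 and 1.31 with short bars, while Eno2 under LPS (4.64) and Aldoc in control (3.79) lie far right with long bars.

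At the lactate branch, the genes of the L-lactate dehydrogenase subunits went different ways. Ldha (chromosome 7, 46841475 to 46855627, plus strand) encodes the subunit that favours lactate formation. It was read in every kept cell, with lowest, median and highest cells at 12.5, 877 and 2985 CPM in control p27 high, 8.84, 1175 and 2913 CPM in low and 12.1, 885 and 3201 CPM in negative cells, and at 52.7, 1291 and 3317, 141, 1501 and 4277, and 26.9, 1388 and 3189 CPM in the LPS groups. Summed over cells, the levels were 1060, 1333 and 1013 CPM in control marrow and 1273, 1687 and 1445 CPM under LPS, so each LPS group was above its control group, by log2 folds of 0.26 (0.13 to 0.42 over parts), 0.34 (0.28 to 0.45) and 0.51 (0.20 to 1.04), all under 2-fold. Per spike-in read they were 1.71, 1.62 and 2.33.

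Ldhb (ENSMUSG00000030246, chromosome 6, 142490249 to 142507957, minus strand), the gene of the heart-type subunit that favours lactate oxidation, was highest in control p27 high cells. It had reads in 68 of 84, 54 of 93 and 63 of 95 control p27 high, low and negative cells, with median cells at 146, 9.13 and 11.9 CPM and highest cells at 810, 665 and 602 CPM. Under LPS it had reads in 59 of 93, 36 of 90 and 57 of 92 cells, with medians of 44.9, 0 and 3.89 CPM and highest cells at 492, 255 and 415 CPM. The p27 high group had the highest median in each treatment, and only in LPS p27 low cells did most cells lack a read. The summed levels were 158, 133 and 55.8 CPM in control marrow and 102, 29.2 and 42.2 CPM in LPS cells. The log2 fold of p27 high over negative cells was 1.48 in control (0.77 to 2.49 over parts) and 1.25 under LPS (0.61 to 2.14), the latter 0.46 per spike-in read. In p27 low cells, LPS stood at -2.15 against control (-2.89 to -1.19), and at -0.89 per spike-in read. Ldhb shares 21% of its 50-base stretches with the pseudogene Gm5514. Per kilobase of exon, Ldhb made up 23.9%, 17.4% and 10.4% of the L-lactate dehydrogenase pair in control and 14.4%, 3.52% and 5.81% in LPS cells. In each p27 class the share was thus lower under LPS, although the ranges over parts overlapped in p27 high cells (16.1% to 30.1% and 7.92% to 17.8%) and in p27 negative cells (6.08% to 18.4% and 4.35% to 7.58%).

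Ldhd (chromosome 8, 111623785 to 111630374), which encodes the mitochondrial D-lactate dehydrogenase, had reads in 14, 13 and 10 control and 26, 15 and 18 LPS cells, with highest cells at 683, 950 and 748 CPM and at 1067, 803 and 247 CPM. Its summed levels were 30.6, 11.5 and 14.1 CPM in control marrow and 93.5, 22.1 and 7.69 CPM in LPS cells, and the log2 fold of LPS p27 high over negative cells was 3.44 (3.06 to 3.89 over parts). It shares 40.2% of its 50-base stretches with the overlapping gene Znrf1, so its level is uncertain. The lactate carrier gene Slc16a1 had 63.4, 72.5 and 111 CPM in control marrow and 68.1, 109 and 120 CPM in LPS cells, lowest in the p27 high cells of each treatment by less than 2-fold, with log2 folds of p27 high over negative cells of -1.23 and -1.62 per spike-in read. Slc16a3, the carrier typical of highly glycolytic tissue, stayed between 1.91 and 9.86 CPM.

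Of the genes of the pyruvate dehydrogenase kinases, Pdk2 and Pdk1 had differences past 2-fold between groups and Pdk3 had none. Pdk3 was the most abundant per kilobase, with 69.7% to 93.6% of the PDK reads, and had 206, 238 and 220 CPM in control marrow and 206, 181 and 181 CPM in LPS cells. Pdk2 (ENSMUSG00000038967, chromosome 11, 95026258 to 95041354, minus strand) was read in 33, 28 and 27 control cells and 16, 17 and 13 LPS cells of the p27 high, low and negative groups, with a median cell at 0 in every group. Its highest cells had 698, 585 and 358 CPM in control marrow and 667, 634 and 437 CPM in LPS marrow. After thinning each cell to 50000 reads, Pdk2 was found in 25% of control p27 high cells (exact binomial interval 16.2% to 35.6%), 18.3% of low and 17.9% of negative cells, and in 7.53%, 13.3% and 7.61% of LPS cells. Summed over cells, the levels were 67.7, 39.6 and 14.8 CPM in control marrow and 25.3, 25.7 and 7.43 CPM in LPS cells, so p27 negative cells were lowest in both treatments. On the log2 scale, the fold of p27 high over negative cells was 2.12 in control (1.4 to 2.72 over parts) and 1.64 under LPS (1.35 to 1.91), or 0.94 per spike-in read under LPS. The fold of p27 low over negative cells was less stable. In control it was 1.36, but 0.64 with the mean of the cells' own CPM, and under 2-fold without cells 33 to 64. Under LPS its parts by cell number did not all have the same sign. Pdk2 shares no 50-base stretch with another gene.

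Pdk1 (chromosome 2, 71873224 to 71903858), the kinase gene best known as a HIF-1 target, was similar in 5 groups and low in LPS p27 negative cells. It had reads in 47, 48 and 58 control and 40, 35 and 39 LPS cells, with highest cells at 1027, 858 and 1094 CPM in control marrow and 1185, 1213 and 473 CPM in LPS marrow and medians of at most 4.22 CPM. The summed levels were 104, 87.1 and 90.9 CPM in control marrow and 84.1, 61.6 and 19.1 CPM in LPS cells. In p27 negative cells the log2 fold of LPS over control was -2.20 (-3.15 to -1.68 over parts), and -0.43 per spike-in read, a smaller difference. LPS p27 high cells stood 2.08 (1.39 to 3.03) and low cells 1.64 (1.04 to 2.30) above negative cells, or 1.32 and 0.78 per spike-in read, the latter under 2-fold. The thinned share of cells with a read was 42.1% (32% to 52.7%) in control and 20.7% (12.9% to 30.4%) in LPS p27 negative cells. Pdk4 had 18 and 2 reads in control p27 high and low cells, 76 and 2 reads in LPS p27 high and low cells, and 0 reads in both p27 negative groups, where 3 reads would have been 0.0721 and 0.0612 CPM. The complex's own subunit genes Pdha1 and Pdhb had between 99.9 and 152 CPM in all groups.

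**Figure D4:**
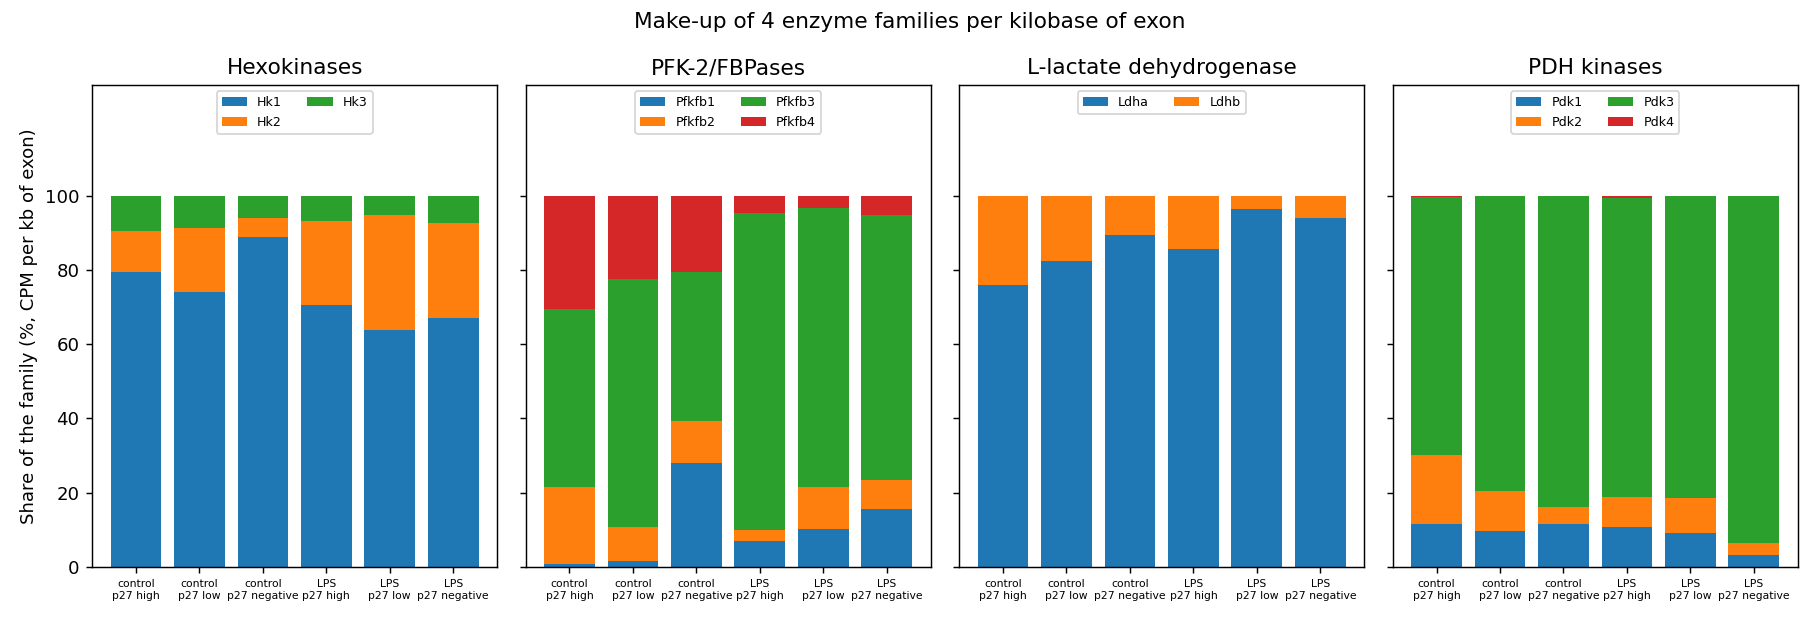
Share of each gene in 4 enzyme families (stacked bars, percent of CPM per kilobase of exon) in the 6 groups. Ldhb takes 23.9% of the L-lactate dehydrogenase pair in control p27 high cells and 3.52% in LPS p27 low cells, and Hk2 takes 5.07% to 17.2% of hexokinase in control and 22.6% to 31.1% in LPS groups.

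Between LPS and control cells of the same p27 class, 4 members were higher and 1 lower past 2-fold in p27 high cells (15.2%, where 23.5% of all genes passed, 9.7% higher and 13.8% lower), 3 higher and 5 lower in p27 low cells (24.2% against 27.6%, with 9.97% higher and 17.6% lower), and 4 higher and 2 lower in p27 negative cells (18.2% against 19%, with 7.62% higher and 11.4% lower). The counts again lie at or under the background. The medians of the members were -0.07, -0.26 and -0.02 on the log2 scale, beside -0.08, -0.15 and -0.11 over all genes. Scaling per spike-in read moved the median of all genes by 1.31, 1.14 and 1.69 in the p27 high, low and negative class. On that scale 24, 17 and 28 of the 33 members were higher past 2-fold and none lower, where 64.2%, 55.3% and 79% of all genes passed in either direction. LPS and control cells come from separate tables, and treatment and batch cannot be told apart.

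Pfkfb3 (ENSMUSG00000026773, chromosome 2, 11471433 to 11554077, minus strand) encodes the bifunctional enzyme that makes fructose 2,6-bisphosphate, the strongest activator of phosphofructokinase, and had the largest fold after LPS in p27 high cells among the members at 10 CPM or more there. It had reads in 20, 28 and 30 control p27 high, low and negative cells, with highest cells at 459, 458 and 258 CPM and a median cell at 0 in each group. Under LPS it had reads in 64, 51 and 58 cells, with medians of 5.16, 3.12 and 2.25 CPM and highest cells at 2151, 1322 and 783 CPM. More cells had a read, and the highest cells were higher, in each LPS group. The thinned share of cells with a read went from 13.1% (6.72% to 22.2%) to 41.9% (31.8% to 52.6%) in p27 high, from 28% (19.1% to 38.2%) to 40% (29.8% to 50.9%) in low and from 16.8% (9.94% to 25.9%) to 38% (28.1% to 48.8%) in negative cells. Summed over cells, the levels were 20.8, 45.5 and 15.4 CPM in control marrow and 170, 116 and 71.9 CPM in LPS cells. The log2 folds of LPS over control were 2.97 (2.41 to 5.69 over parts) in p27 high, 1.34 in low, where 1 of the parts had the opposite sign (-0.31 to 2.90), and 2.15 (1.84 to 3.28) in negative cells. A single cell held 73.6% of the reads of control p27 high cells, and without the top cell of each group the fold in p27 high cells was 4.51. The folds of the 3 classes were 4.39, 2.61 and 3.96 per spike-in read. Whether the folds of the 3 classes differ was not tested. Among control cells, p27 low cells stood 1.5 above negative cells (1.35 to 2.35).

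Hk2 (ENSMUSG00000000628, chromosome 6, 82725025 to 82774454, minus strand), the inducible hexokinase of the first step, was also higher under LPS. It had reads in 37, 46 and 30 control cells and 66, 65 and 77 LPS cells. The median cell was at 0 in all control groups and at 12.2, 10.2 and 15.2 CPM in LPS p27 high, low and negative cells, with highest cells at 504, 404 and 247 CPM in control marrow and 498, 622 and 557 CPM in LPS marrow. The 3 LPS groups thus had more cells with Hk2 reads, while the highest cells in p27 high marrow were alike. The thinned share went from 27.4% to 51.6% in p27 high, from 35.5% to 52.2% in low and from 12.6% (6.70% to 21%) to 56.5% (45.8% to 66.8%) in negative cells. The summed levels were 21, 37.2 and 10.2 CPM in control marrow and 43.3, 58.8 and 46.5 CPM in LPS cells. The log2 fold of LPS over control was 1.01 (-0.14 to 1.94 over parts), 0.65 (-0.53 to 1.99) and 2.08 (1.37 to 3.73), so only in p27 negative cells did all parts have the same sign. The Hk2 folds were 2.42, 1.91 and 3.88 per spike-in read. Hk2 shares no 50-base stretch with another gene. Per kilobase of exon, it made up 11.1%, 17.2% and 5.07% of hexokinase in control and 22.6%, 31.1% and 25.6% in LPS cells, where Hk1 kept the largest share in every group (63.8% to 88.9%).

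**Figure D5:**
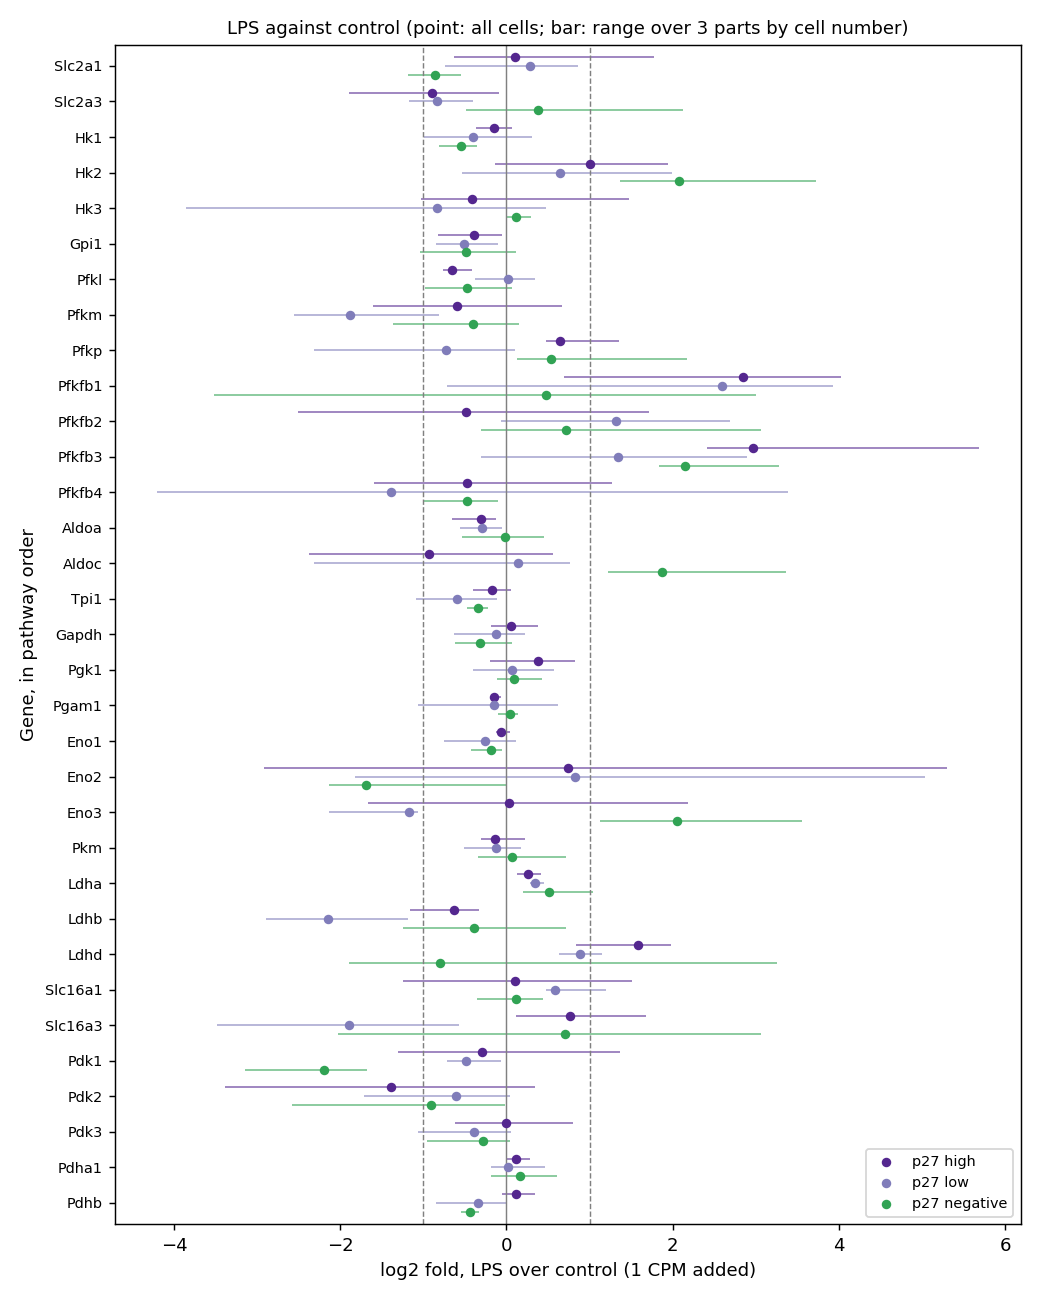
Log2 fold of LPS over control cells (horizontal axis, 1 CPM added) for the 33 genes, in the 3 p27 classes; points are all cells, bars the range over the 3 parts by cell number, and dashed lines a 2-fold difference. Pfkfb3 lies at 2.97, 1.34 and 2.15, Hk2 at 1.01, 0.65 and 2.08 and Pdk1 in p27 negative cells at -2.20, while Aldoa, Pkm, Tpi1 and Ldha lie between the dashed lines.

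The remaining regulators of fructose 2,6-bisphosphate were scarce. Pfkfb2 had reads in 6 to 16 cells of a group, with highest cells between 152 and 402 CPM, and summed to 8.70, 6.05 and 4.11 CPM in control marrow and 5.92, 16.6 and 7.45 CPM in LPS cells. Pfkfb2 shares 17.3% of its 50-base stretches with other genes, most of them with Gm29427, so its level is uncertain. LPS p27 high cells stood at -1.35 against low cells (-2.29 to -1.04 over parts), or -0.98 with 5 CPM added. LPS p27 low cells stood 1.06 above negative cells (0.26 to 1.55). This second fold was 0.24 per spike-in read, 0.99 with the mean of the cells' own CPM and 0.60 without cells 33 to 64, all under 2-fold. Pfkfb1 stayed between 0.138 and 8.39 CPM, Pfkfb4 between 3.13 and 9.86 CPM, and the myeloid hexokinase gene Hk3 between 5.98 and 11.5 CPM.

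The glucose transporter genes showed no common direction. Slc2a1 (chromosome 4, 119108711 to 119137983), the GLUT1 gene, had reads in 34, 34 and 56 control and 38, 35 and 47 LPS cells, with medians of at most 2.59 CPM and highest cells at 605, 596 and 788 CPM in control marrow and 659, 935 and 294 CPM in LPS marrow. Its summed levels were 66, 36 and 80.1 CPM in control marrow and 70.8, 44 and 43.7 CPM in LPS cells, and the log2 fold of control p27 low over negative cells was -1.13 (-2.15 to -0.43 over parts), and -0.65 with the mean of the cells' own CPM. Slc2a3, the high-affinity GLUT3 gene, had 105, 114 and 65.9 CPM in control marrow and 55.9, 63.4 and 85.8 CPM in LPS cells, with no difference past 2-fold in CPM. Per spike-in read its log2 fold was -1.42 for p27 high over negative cells under LPS and 2.18 for LPS over control in p27 negative cells.

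Related genes outside the 34 were read from lists of pathway relatives, regulators, HIF targets, the pentose phosphate pathway and the tricarboxylic acid cycle. In LPS against control p27 high cells, 6 of 26 relatives with a mean of at least 1 CPM were higher and 5 lower past 2-fold (42.3%, where 23.5% of all genes passed, 9.7% higher and 13.8% lower). In p27 low and negative cells the shares were 34.6% and 19.2%, beside 27.6% and 19% of all genes. Slc2a6 (chromosome 2, 27021363 to 27027998), which encodes the transporter GLUT6, had 0 reads in all 272 control cells. Under LPS it had reads in 22 of 93 p27 high, 30 of 90 low and 23 of 92 negative cells and summed to 50.1, 97.5 and 13.6 CPM. Against a floor of 3 reads per control group it was at least 362-fold, 989-fold and 189-fold higher. Fbp1, the fructose-1,6-bisphosphatase of gluconeogenesis, went from 72.8 to 12.9 CPM in p27 high and from 42.6 to 20.3 CPM in p27 low cells, and had 28.9 and 27.2 CPM in control and LPS p27 negative cells. Its log2 folds of LPS over control were -2.40, -1.03 and -0.08, or -1.01, 0.21 and 1.70 per spike-in read, so the difference in p27 low cells turned on that scale.

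Among 12 regulators with a mean of at least 1 CPM, Txnip, which restrains glucose uptake, had 2236, 1797 and 987 CPM in control marrow and 1033, 647 and 432 CPM in LPS cells. It was read in every kept cell. Its log2 fold of p27 high over negative cells was 1.18 in control and 1.26 under LPS, and that of LPS over control was -1.11, -1.47 and -1.19 in p27 high, low and negative cells. On the spike-in scale the class folds were 0.74 and 0.45 and the treatment folds 0.34, -0.19 and 0.63, all under 2-fold, with the treatment direction turned in p27 high and negative cells. Hif3a, a HIF-alpha relative often described as a restraint on the others, had 48.5, 10.3 and 2.84 CPM in control marrow and 10.2, 8.39 and 1.22 CPM in LPS cells. Of 19 HIF targets outside glycolysis, 4 were higher and 3 lower past 2-fold in control p27 high than negative cells (36.8%, where 24.7% of all genes passed, 14.5% higher and 10.1% lower), with P4ha1, a collagen prolyl hydroxylase subunit gene, at 109 against 47.7 CPM and Tfrc, the transferrin receptor gene, at 5.57 against 23.2 CPM. Under LPS the share of these HIF targets was 36.8% for p27 high and 0% for p27 low against negative cells, beside 22.2% and 20.3% of all genes. The pentose phosphate genes had 1 of 9 past 2-fold in control p27 high against negative cells (11.1%, beside the same 24.7%), H6pd at 56.8 against 24.7 CPM. Per spike-in read P4ha1 and H6pd stood 0.75 and 0.74 higher, under 2-fold. Of the 20 tricarboxylic acid cycle genes, none was higher and 2 were lower past 2-fold in control p27 high than negative cells (10%, beside the same 24.7%). Fh1, the fumarate hydratase gene, had 105 against 219 CPM.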

How the data were processed

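The submitters' processing notes name the tools GSNAP and HTSeq 0.6.0 and the build mm10. The deposited values are raw read counts per gene and cell, in 2 tables of 288 cells each. The sources used here give no annotation release, strand setting or number of animals. Over all cells, genes held 34.1% of reads, spike-ins 2.06%, reads outside genes 6.86%, ambiguous reads 4.28% and unaligned reads 52.7%. Entries that name no gene stayed out of library sizes.

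Cells with at least 50000 gene reads were kept, and their reads were summed per group, divided by the group's total (21714440 to 49018367 reads) and given as CPM. Log2 folds add 1 CPM. Genes with a mean of at least 1 CPM over the 6 groups (13967 of 46078) enter counts past 2-fold. With 1 sample per group there is no test, SE or p-value. Intervals are exact Poisson (sums) or exact binomial (shares of cells after thinning to 50000 reads, Clopper-Pearson), at 95%, and cover counting error only, since reads without molecular identifiers are not independent molecules. No 2 cells had identical counts.

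Gene symbols, positions and exon lengths came from GENCODE M21 (45143 of 46078 IDs matched). The 34 members and all lists were chosen with earlier results of these data known. Cell-level values are given for members past 2-fold in at least 1 of 9 comparisons, at 10 CPM or more in the higher group and in the same direction in all 3 parts by cell number, and of each other list up to 4 genes are named by the same rule. Fold computation was checked on simulated data, with changes much larger than 2-fold in genes at 10 CPM or more. That check does not bear on calls near 2-fold or on genes under that level. Python 3.11.15 and R 4.3.3 were used, with edgeR 4.0.16 for TMM scaling only. Alternatives covered scaling, pseudocount, filters on genes and cells, the top cell, left-out parts and the fold required. The results of 1 listed gene outside the members are not reported here.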

Additional observations from a re-analysis of the deposited data

Results flagged for a closer look

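Eno3, the muscle enolase gene, moved in opposite directions with LPS in different p27 classes in all 3 parts by cell number, in CPM. Its log2 fold of LPS over control was -1.17 in p27 low cells (22.5 CPM in control and 9.47 CPM under LPS) and 2.05 in p27 negative cells (3.51 and 17.7 CPM). The difference between the classes was not tested. It rests on few cells: 12 control and 9 LPS cells of the p27 low groups and 9 control and 20 LPS cells of the p27 negative groups had a read, and a single cell held 59% of the control p27 low reads. Without the top cell of each group the fold in p27 low cells was -0.73. Per spike-in read the folds were 0.03 in p27 low and 3.82 in p27 negative cells, so the opposite direction was not seen on that scale.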

How the results depend on the processing

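The 41 log2 folds of named members kept their direction in 532 of 533 values under alternatives. The exception was Eno3 in LPS against control p27 low cells, at 0.03 per spike-in read. Without the spike-in scaling, 464 of 492 values stayed past 2-fold, and 27 of the 41 folds did so under every such alternative. The numbers of members past 2-fold moved by more than 1.5 times as follows, and the cause was not tested except where the setting itself narrows the count. Per spike-in read, the count was 24 in place of 5 in p27 high cells for LPS against control, 17 in place of 8 in low and 28 in place of 6 in negative cells, and 12 in place of 7 for LPS p27 low against negative cells. The median of all genes moved too, by 1.31, 1.14 and 1.69 in the treatment comparisons and by -0.86 for LPS p27 low against negative cells. With a log2 fold of 1.5 required, which can only lower a count, it was 2 for control p27 high against low, 6 for control low against negative, 4 for LPS high against negative, 2 for LPS high against low, 3 for LPS low against negative, and 3 and 4 in p27 high and low cells for the treatment comparison. For control p27 high against low cells (5), it was 3 with the mean of the cells' own CPM, 3 with 5 CPM added, and 8 without the top cell of each gene. For LPS p27 high against negative cells (7) it was 11 with the mean of the cells' own CPM, for LPS high against low cells (7) 4 with 5 CPM added, and for LPS against control in p27 low cells (8) 5 with 5 CPM added and 4 with a mean of at least 10 CPM. Leaving out each part by cell number gave 4 to 8 for control p27 high against low cells and 5 to 10 in p27 high cells for LPS against control. No share of all genes is given here beside these counts, so they do not compare the members with other genes. Of the isozyme shares, 748 of 1350 values moved beyond their counting interval. An alternative chosen after seeing the data, the length of the longest principal transcript, put Ldhb at 16.8%, 11.9% and 6.94% of its pair in control and 9.75%, 2.29% and 3.81% in LPS cells, and Hk2 at 6.06%, 9.68% and 2.62% and 13%, 18.6% and 15% of hexokinase, in the same order of groups. No paired analysis was possible because each group is 1 sample, replicate numbers only number cells, and no result comes from a test. Members under 10 CPM rest on few cells, and their folds are the least certain.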
